A study of Mus musculus with 54 samples.

Results

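Within a panel of 23 single-cell clones derived from 4T1, a mouse mammary carcinoma line, the 6 with the highest epithelial score were compared with the 6 with the lowest. The score of a clone was the mean deposited log2 value of 8 epithelial genes, Cdh1, Epcam, Krt7, Cldn4, Ocln, Esrp1, Grhl2 and Elf3, over its 2 libraries. Clones A, L, J, M, P and H made up the most epithelial group, and clones E, N, W, B, O and S the least epithelial group. The remaining 11 clones belonged to neither. The comparison therefore used 24 of the 54 libraries of the series, which also held 4 specimens from mice, 2 orthotopic tumors and 2 lung metastases. All clones came from the same parental line, each from 1 cell isolated by flow sorting, and were grown in high-glucose DMEM with fetal bovine and fetal calf serum; the labels name no treatment. Clone E carries the label Intravasating, for cells that enter blood vessels, and the other 11 clones of the comparison are labelled Non-Intravasating. A clone is a single lineage, so 6 clones stand for at most 6 lineages of 1 line. How closely these lineages are related was not tested. The labels do not say whether the libraries A and B of a clone came from separate cultures.

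Epithelial cells hold together through adherens junctions, tight junctions and desmosomes, and rest on a basement membrane through laminins and integrins. In the epithelial-mesenchymal transition, transcription factors of the ZEB, SNAIL and TWIST families repress junction genes, the splicing regulators Esrp1 and Esrp2 are lost, and cells take on the vimentin-rich cytoskeleton of mesenchymal cells. Carcinoma cells often sit at intermediate states, and the 4T1 line is known for keeping E-cadherin while it metastasises.

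The libraries of the most epithelial group held 8849257 to 17577659 recovered reads (median 15019332.5), and those of the least epithelial group 13059208 to 31609870 (median 17280714). Genes with at least 1 read numbered 14399 to 16500 and 14861 to 16807, and the ribosomal RNA precursor Rn45s took 3.01% to 6.22% and 2.15% to 7.21% of the reads. The part of this difference in depth in the results was not tested. The libraries of a clone correlated across genes at 0.995 to 0.998.

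The scores ran from 11.88 in clone A through 11.67 in L, 11.43 in J, 11.23 in M and 10.99 in P to 10.78 in H. In the least epithelial group they were 8.73 in clone E, 8.64 in N, 8.51 in W, 8.48 in B, 7.25 in O and 7.09 in S. Just outside the groups stood clones R and Q at 10.54 each on the epithelial side and clone T, the other clone labelled Intravasating, at 8.96. The scores therefore changed gradually, except that clones O and S lay more than 1 unit below the rest. Scores from the libraries A alone chose the same 12 clones, while scores from the libraries B put clone T in the place of E. The specimens scored 10.09 and 10.04 in the orthotopic tumors and 8.15 and 7.91 in the lung metastases; in such bulk samples fewer cells of a type and less RNA per cell cannot be told apart.

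The 8 score genes chose the clones, so their values are a description. Esrp1, which directs epithelial splicing, had 1543, 3363 and 4955 normalized counts in the lowest, median and highest clone of the most epithelial group, and 2.8, 6.34 and 16.4 in the least epithelial group. Cdh1, which encodes E-cadherin, the adhesion molecule of adherens junctions, had 13277, 18124 and 24203 counts against 217, 2763 and 4941. Cldn4, a tight junction claudin, had 483, 1143 and 3010.0 counts against 2.42, 8.79 and 21.4. Transcripts of E-cadherin were thus present in every least epithelial clone: E, N, W and B had at least 1678 counts of Cdh1, against 217 in O and 529 in S. In the 11 other clones Esrp1 ran from 10.5 to 509 counts, below every clone of the most epithelial group, whereas Cdh1 ran from 917 to 16891 and overlapped both groups. Among the other 5 score genes, the highest value in the least epithelial group was 5381 counts of the simple keratin Krt7, in clone W.

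**Figure D1:**
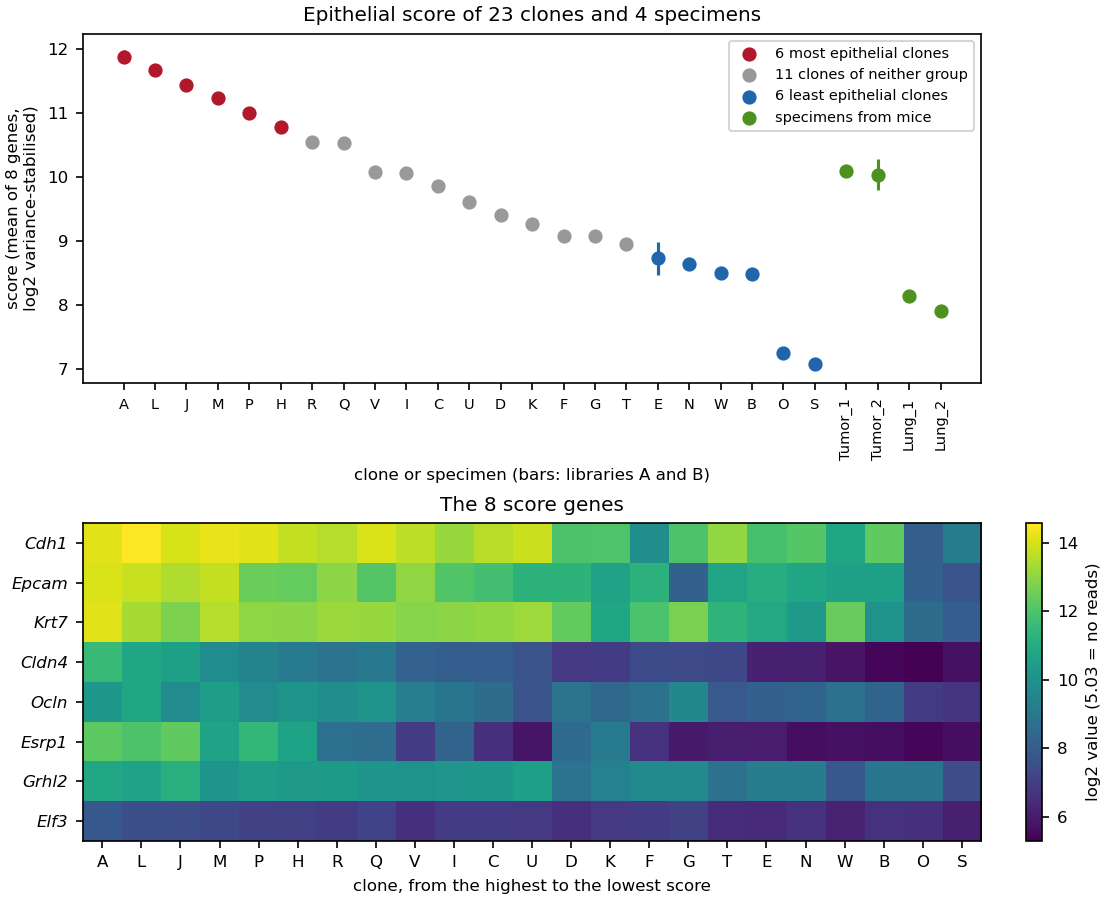
The upper panel plots the epithelial score (mean log2 value of 8 genes) of the 23 clones and 4 specimens, with the mean of 2 libraries as a point and the 2 libraries as the ends of a bar; the lower panel shows the log2 value of each score gene in each clone. Scores fall from 11.88 in clone A to 7.09 in clone S, and Esrp1 and Cldn4 fade along the order sooner than Cdh1 and Krt7.

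Of 12940 genes tested outside the score, 1870 were higher and 2056 lower in the most epithelial clones with limma (1 value per clone, adjusted p under 0.05 over all genes), which is 14.5% and 15.9% of the genes and 30.3% in either direction. The clones of the groups did not overlap for 786 genes on the higher side (6.07%) and 797 on the lower side (6.16%). These shares are the background for the counts of each gene list below. Groups that were chosen from the libraries they are tested in can differ more than new libraries would. With clones chosen in the libraries A and tested in the libraries B, 1627 genes were higher (12.5%) and 1721 lower (13.2%), and 3156 of these were among the 3926 above. With the libraries exchanged, 1335 were higher (10.3%) and 1442 lower (11.1%). Both letters belong to the same clones, so this covers the choice of libraries and not the choice of clones.

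The 11 clones of neither group share no library with the groups, and their scores still ran from 8.96 to 10.54. Of the 1870 genes higher in the most epithelial clones, 1691 (90.4%) had a positive slope on the score among these 11 clones, with a median of 0.22 log2 units per unit of score. Of the 2056 lower genes, 193 (9.39%) had a positive slope, with a median of -0.22. Among the 9014 genes that did not pass, 49.2% had a positive slope. On its own the slope over 11 clones passed the limma threshold for 1 gene (0.00773% of those tested), the polarity gene Pard6b (slope 1.14), named after its value was seen, and 1192 genes had an unadjusted p under 0.05. Without any 1 of the clones G, I, Q, R or V it passed for 0 genes. The signs are therefore read over many genes, and genes are not independent replicates.

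**Figure D2:**
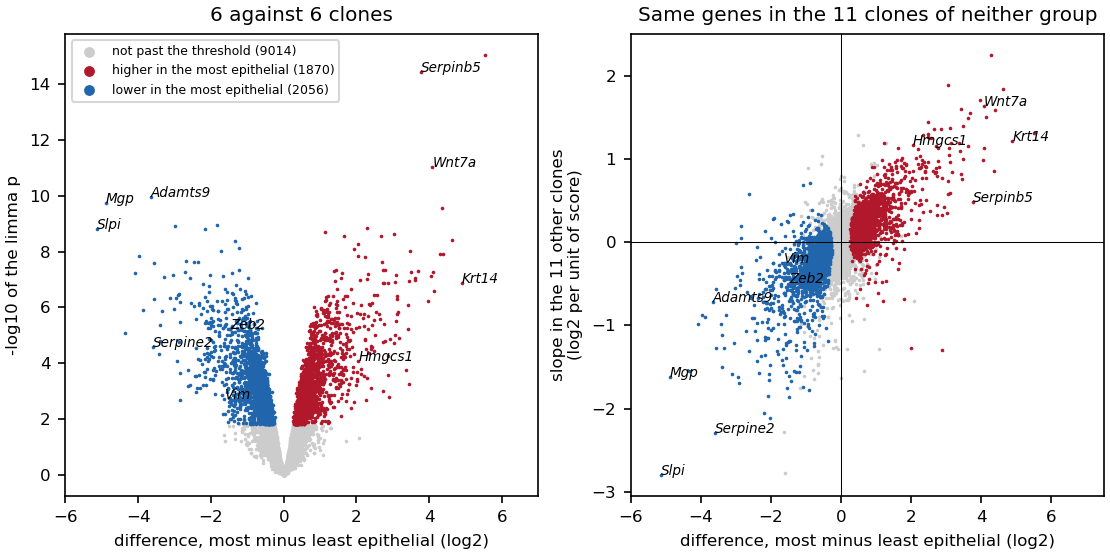
The left panel plots for each of 12940 genes the difference between the groups (log2, most minus least epithelial) against -log10 of the limma p; the right panel plots the same difference against the slope on the score in the 11 clones of neither group (log2 per unit of score). Red genes (1870) lie mostly above 0 and blue genes (2056) mostly below 0 in the right panel.

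Junction genes outside the score were higher together in the most epithelial clones. Of 27 tested genes of adherens and tight junctions, 16 were higher and 0 lower, with a median difference of 0.89 against -0.01 over all genes tested, and 24 of the 27 had a positive slope on the score among the 11 other clones. Cldn7, a claudin that binds the Epcam protein, had 52.7, 1001 and 3599 counts (lowest, median and highest clone) in the most epithelial group and 5.58, 18.7 and 137 in the least. Clone H lay within the range of the least epithelial clones for Cldn7, and the difference was 3.37 ± 0.68 (SE; limma adjusted p = 0.00238). Cgn encodes cingulin, which ties tight junctions to the cytoskeleton. It had 991, 1202 and 1877 counts against 40.8, 193 and 377, without overlap, and differed by 2.63 ± 0.34 (limma adjusted p = 0.000126). Cldn3 differed by 2.85 ± 0.60 and Marveld2, the tricellulin of corners where cells meet, by 1.98 ± 0.29.

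Among 10 desmosomal genes, 7 were higher and 1 was lower, with a median of 1.28. The desmosomal cadherin Dsg2 had 1233, 1894 and 2608 counts in the most epithelial clones and 5.53, 293 and 545 in the least, and clone O held the value of 5.53. It differed by 3.04 ± 0.49 without overlap (limma adjusted p = 0.000565). Dsp, the plakin that anchors keratin filaments, differed by 2.88 ± 0.51, and the plakophilins Pkp1 and Pkp2 by 1.79 ± 0.30 and 1.79 ± 0.28. Ppl, which encodes periplakin, was the lower one at -0.82 ± 0.28 (limma adjusted p = 0.0371). Its call ended without any 1 of the clones A, H, L, P, B, E, O or W, with adjusted p between 0.0518 and 0.0819.

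Of 26 tested membrane and sorting proteins of epithelia, 16 were higher and 2 lower, with a median of 1.09. Rab25, a small GTPase of apical recycling, had 99.9, 299 and 1129 counts against 2.8, 4.19 and 12.8, without overlap, and differed by 2.93 ± 0.46. The apical transport proteins Mal2 and Mal differed by 3.17 ± 0.49 and 2.88 ± 0.31. The 2 lower genes were low in both groups: the mucin Muc1 had a median of 6.32 counts against 19.1 and Rab17, another Rab GTPase of epithelia, 7.86 against 23.6. Their differences were -0.52 ± 0.12 and -0.68 ± 0.19. The call of Muc1 ended with clones chosen in the libraries A and tested in B (limma adjusted p = 0.0566), and that of Rab17 with the libraries exchanged (0.0595).

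The membrane protease matriptase and its partners moved the same way, with 8 of 10 tested genes higher and 0 lower at a median of 1.23. St14, which encodes matriptase, had 1972, 3597 and 4598 counts in the most epithelial clones and 74, 923 and 1553 in the least, and differed by 2.29 ± 0.49 (limma adjusted p = 0.0036). F2rl1, the protease-activated receptor that matriptase can cleave, differed by 1.73 ± 0.23. Tmprss11e differed by 1.84 ± 0.54 and the tryptase-like protease Prss22 by 2.00 ± 0.41. Without clones O and S, the 2 that stood apart in score, 5 of the 10 were higher, while 16 of the 27 adherens and tight junction genes still were.

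The upstream sequences of these genes are shown because the repressors of the transition bind a short E-box, and the letters of that E-box recur here. The E-box CACCTG, on either strand (CAGGTG on the other), was searched in the 250 bases before each RefSeq start site in the GRCm38.p6 build, the patched form of mm10. Of 27025 genes with a sequence, 19.4% held it, and of the 9511 tested genes with a sequence, 18.4%. It was present in 12 of the 22 genes with a sequence that were higher in the lists of junctions, desmosomes and membrane proteins (54.5%), among them Cldn7, Crb3, Lsr, F11r, Pard6b, Ap1m2 and Rab25. Called or not, the tested members with a sequence held it in 7 of 17 junction, 0 of 2 desmosomal and 11 of 18 membrane genes. These included Muc1 and Rab17, which were lower, so the letters were not confined to higher members. Over all higher genes the share was 22.1%, and over all lower genes 18.7%. All 5 score genes with a sequence, Epcam, Krt7, Cldn4, Ocln and Elf3, held the letters. Capitals mark the E-box in Epcam, where it begins 187 and 19 bases before the start site, and in Rab25, where it begins 64 and 53 bases before it; a match is a description of the letters and not a bound site.
Epcam, chr17:87635729-87635978, plus strand: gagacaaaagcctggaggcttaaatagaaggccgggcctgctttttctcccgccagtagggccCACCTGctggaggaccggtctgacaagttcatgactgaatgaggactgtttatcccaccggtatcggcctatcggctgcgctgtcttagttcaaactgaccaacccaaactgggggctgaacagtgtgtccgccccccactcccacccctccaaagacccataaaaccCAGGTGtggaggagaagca
Rab25, chr3:88548280-88548529, minus strand: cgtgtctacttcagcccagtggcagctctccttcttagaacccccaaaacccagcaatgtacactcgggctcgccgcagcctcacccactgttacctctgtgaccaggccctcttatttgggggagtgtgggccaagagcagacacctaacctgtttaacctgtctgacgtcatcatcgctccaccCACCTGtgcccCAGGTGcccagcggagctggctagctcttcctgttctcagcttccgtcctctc

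Keratins divided. Krt14, the basal keratin on chromosome 11 from 100203162 to 100207510 (mm10), had 239, 2577 and 3908 counts in the most epithelial clones and 2.35, 10.3 and 32.5 in the least. No clone overlapped, and the difference was 4.89 ± 0.52 (limma adjusted p = 2.69e-05). Krt80 differed by 2.03 ± 0.17, Krt19 by 1.71 ± 0.47 and Krt17 by 1.06 ± 0.32, which made 4 of 8 tested keratins higher and 0 lower. Without clones O and S, 2 of the 8 were higher, and the calls of Krt19 and Krt17 ended (limma adjusted p = 0.0632 and 0.0622). The simple keratins Krt8 and Krt18, chosen after their values were seen, were abundant in every clone. Krt8 had 6679.6 to 11969 counts against 5491 to 12880.1 and Krt18 10863 to 20046 against 8321 to 18182, and their differences of -0.01 ± 0.21 and 0.20 ± 0.20 did not pass (limma adjusted p = 0.979 and 0.482). The sign of both differences depended on the alternative.

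Lamb3 and Lama3, laminin chains that epithelial cells lay beneath themselves, were higher. Lamb3, on chromosome 1 from 193294353 to 193343878, had 1054, 1742 and 2729.6 counts in the most epithelial clones and 3.4, 34.3 and 134 in the least, a difference of 4.36 ± 0.29 (limma adjusted p = 4.94e-07). Lama3 differed by 4.04 ± 0.41. Neither overlapped between the groups. The integrin chain Itgb1 differed by 1.03 ± 0.13, and 4 of 11 genes of epithelial laminin and hemidesmosomes were higher and 0 lower.

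Of 14 integrins 2 were higher, near the 14.5% of all genes, and 5 were lower, against 15.9% of all genes. Itgb6, the epithelial chain of the integrin that releases active TGF-beta, had 99, 489 and 662 counts against 1.15, 8.54 and 40.3 and differed by 3.06 ± 0.32 without overlap. The collagen receptor chain Itga2 differed by 2.35 ± 0.41. Itgb2, known as the leukocyte integrin chain, and Itgb3 were lower, at -1.88 ± 0.39 and -1.40 ± 0.36.

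Regulators of the epithelial program that were not in the score followed it in part. Of 17 tested, 7 were higher and 1 lower, with a median of 0.13; a stricter filter on counts left 11 of them, of which 3 were higher and 1 lower. Esrp2, the paralog of Esrp1 on chromosome 8 from 106130319 to 106137193, had 393, 471 and 640.0 counts against 45.7, 69.8 and 142, and differed by 2.04 ± 0.18 (limma adjusted p = 6.7e-06). Where Esrp1 had at most 16.4 counts, Esrp2 had at least 45.7 counts in every least epithelial clone. Ovol1 and Ovol2, zinc-finger factors that repress Zeb genes, had medians of 111 and 34.8 counts against 10.1 and 1.04. Their differences were 1.44 ± 0.14 and 1.22 ± 0.14, and neither overlapped. Grhl1 differed by 0.90 ± 0.14 and the luminal pioneer factor Foxa1 by 0.95 ± 0.17. Gata3, the luminal factor of the mammary gland, was lower in the most epithelial clones, with 793, 1392 and 1884 counts against 1976, 2246 and 3301. The groups did not overlap for Gata3, which differed by -0.79 ± 0.20 (limma adjusted p = 0.00847, and 0.0511 without clones O and S).

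**Figure D3:**
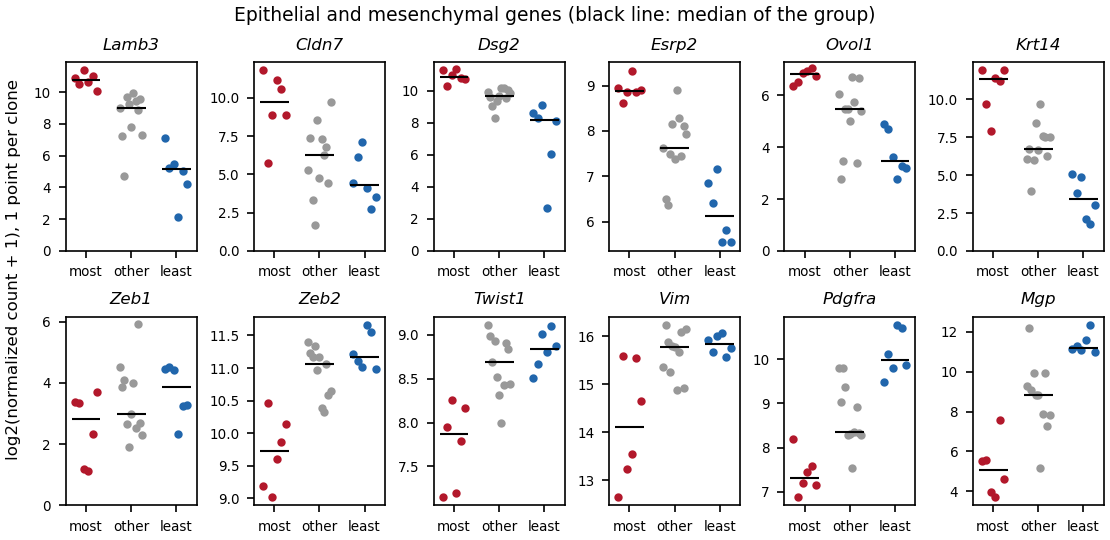
Each point is 1 clone, as log2(normalized count + 1), in the 6 most epithelial, 11 other and 6 least epithelial clones, with the median as a black line and an axis of its own for each gene. Lamb3, Esrp2, Ovol1 and Krt14 separate the outer groups from above, Zeb2, Twist1, Pdgfra and Mgp from below, while Cldn7, Zeb1 and Vim overlap.

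Of 15 tested transcription factors of the epithelial-mesenchymal transition, 7 were lower in the most epithelial clones and 1 was higher, with a median difference of -0.66 against -0.01 over all genes. Zeb2, on chromosome 2 from 44983512 to 45117442, had 521, 854 and 1415 counts in the most epithelial clones and 2024, 2295 and 3234 in the least. All 6 clones of one group lay below all 6 of the other, with a difference of -1.47 ± 0.21 (limma adjusted p = 0.000251). Over all ways to divide the 12 clones 6 against 6, the exact permutation p was 0.00216 (two-sided), the smallest this design can give. Zeb2 was thus lower but still expressed in the most epithelial clones, and in the 11 other clones it had 1284 to 2695 counts, a range that overlapped both groups.

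Twist1 had 142, 233 and 305 counts against 364, 457 and 546 and differed by -0.90 ± 0.16 without overlap. Foxq1, a forkhead factor, had a median of 4.92 counts against 57.1 and differed by -1.31 ± 0.16, and Tcf4, a protein that binds E-boxes, by -1.09 ± 0.13. Zeb1 was scarce throughout, at 1.18 to 12 counts against 4 to 21.9, and its difference of -0.32 ± 0.15 did not pass (limma adjusted p = 0.121). It passed with array weights, at -0.54 (limma adjusted p = 0.0044), and without clones O and S, at -0.47 (0.0479). Snai1 had medians of 84.9 and 99.2 counts and differed by -0.16 ± 0.12 (limma adjusted p = 0.336, and 0.0467 with array weights). Snai2 was below the filter, with 28.1 counts in clone J and at most 2.3 in the least epithelial clones. Snai3, a SNAIL family member, went the opposite way: it had 17.4, 26.6 and 32.3 counts in the most epithelial clones and at most 1.14 in the least, with a difference of 1.15 ± 0.09 (limma adjusted p = 1.81e-06).

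The miR-200 family, which represses Zeb1 and Zeb2 in epithelial cells, is shown for its place in this circuit, since the table has rows for its precursor genes only. Its 5 members fall into 2 seed groups, with bases 2 to 8 in capitals (RefSeq, GRCm38.p6).
miR-141-3p: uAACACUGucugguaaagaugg
miR-200a-3p: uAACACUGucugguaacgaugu
miR-200b-3p: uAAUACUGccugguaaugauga
miR-200c-3p: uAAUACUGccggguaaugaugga
miR-429-3p: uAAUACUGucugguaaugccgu
The rows of the 5 precursor genes held 37 reads in the 12 most epithelial libraries and 4 reads in the 12 least epithelial libraries. Of the 37 reads, 10 lay in Mir200b and 9 each in Mir200a and Mir429. Mir200c had 3 reads in each group. These numbers were far below the filter, so they were not tested and say nothing of the mature microRNAs.

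Of 17 tested mesenchymal structural genes, 3 were lower in the most epithelial clones, 2 were higher and 12 did not pass, which is near the 15.9% and 14.5% over all genes. Their median was 0.09, and 13 of the 17 had a positive slope on the score among the 11 other clones. Vim, which encodes vimentin, had 6443, 18851 and 49614 counts against 48744, 58803 and 68588. Clone H, at 49614 counts, overlapped the least epithelial clones, and the difference was -1.63 ± 0.43 (limma adjusted p = 0.0111). Vimentin was therefore abundant in every clone. Cdh2, which encodes N-cadherin, had no read in any of the 12 clones. Fn1, which encodes fibronectin, had 10976 to 63122 counts against 16461 to 33243 and differed by 0.55 ± 0.34, which did not pass (limma adjusted p = 0.243). Without clone H, the lowest of its group, Fn1 differed by 0.89 and passed (limma adjusted p = 0.00606), as it did with 5 clones in each group (0.0127) and for the slope over 23 clones (0.0461).

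The receptor Pdgfra, a marker of mesenchymal cells, had 117, 159 and 289.8 counts in the most epithelial clones and 720.1, 1022 and 1756 in the least. It differed by -2.36 ± 0.22 without overlap (limma adjusted p = 9.23e-06). The calcium-binding protein S100a4, also named fibroblast-specific protein, differed by -2.13 ± 0.49. The 2 higher genes were the hyaluronan receptor Cd44 at 0.73 ± 0.18 and the smooth muscle actin Acta2 at 0.41 ± 0.12. The call of Acta2 ended with 5 clones in each group (limma adjusted p = 0.0558). Acta2 had medians of 26.5 and 10.9 counts, and its call ended with the library letter as a block (limma adjusted p = 0.131).

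Matrix genes contained some of the largest differences in both directions. Mgp, which encodes matrix Gla protein, an inhibitor of calcification, had 12.4, 34.4 and 193 counts in the most epithelial clones and 2036, 2368 and 5169 in the least. No clone overlapped, and the difference was -4.88 ± 0.32 (limma adjusted p = 3.82e-07). Pcolce, an enhancer of procollagen processing, differed by -2.96 ± 0.35, Col6a1 by -2.64 ± 0.53 and the bone matrix protein Spp1 by -2.41 ± 0.40. On the other side, Postn, which encodes periostin, a matrix protein usually made by fibroblasts, had 38.1, 495 and 3664 counts against 0, 0.568 and 6.04. It differed by 3.44 ± 0.78 without overlap. Fbln2 differed by 2.31 ± 0.34 and Tnc, which encodes tenascin C, by 2.21 ± 0.47. In all, 4 of 18 genes for collagens and interstitial matrix were higher and 5 lower, and of 14 basement membrane genes 4 were higher and 4 lower, against 14.5% and 15.9% over all genes. The call of Col6a1 ended with 8 clones in each group (limma adjusted p = 0.0511). Its slope on the score among the 11 other clones was 0.58 ± 0.55, opposite in sign to its difference. Of the 18 genes for collagens and interstitial matrix, 11 had a positive and 7 a negative slope there.

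Of 24 genes of TGF-beta signalling, 6 were higher, 7 lower and 11 did not pass, against 14.5% higher and 15.9% lower over all genes, with a median of -0.04. Inhba, which encodes the activin A subunit, had 3958, 6562 and 9977 counts against 137, 862 and 1215 and differed by 3.15 ± 0.41 without overlap. The feedback gene Pmepa1 differed by 2.78 ± 0.44. Among the lower genes, the co-receptor Tgfbr3 had 11.3, 22.9 and 132 counts against 302, 1046 and 2124 and differed by -3.34 ± 0.43 (limma adjusted p = 0.00011). Smad3, the signal transducer, differed by -1.32 ± 0.14 and did not overlap either. Id2, a target of BMP signalling, differed by -2.33 ± 0.49.

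Of 18 genes regulated by YAP or part of the Hippo pathway, 7 were higher and 2 lower, against 14.5% and 15.9% over all genes. Ctgf had 882, 6792 and 9515 counts against 322, 559 and 1079, with clone H in the range of the least epithelial clones, and differed by 3.05 ± 0.47. Cyr61, a matricellular relative of Ctgf, differed by 2.65 ± 0.36 without overlap. Gadd45b differed by 2.30 ± 0.17. The coactivator Wwtr1, also named TAZ, was lower at -0.82 ± 0.20.

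Of 23 Wnt and Notch genes 7 were higher and 2 lower, against 14.5% and 15.9% over all genes. The largest differences were those of ligands. Wnt7a, on chromosome 6 from 91363981 to 91411353, had 939, 1355 and 1519 counts in the most epithelial clones and 6.06, 27.5 and 79.5 in the least. It differed by 4.09 ± 0.21 without overlap (limma adjusted p = 3.06e-08), and its slope among the 11 other clones was 1.64. The Notch ligand Jag1 had a median of 2055 counts against 100.4 and differed by 3.46 ± 0.36. Wnt10b was lower, at -1.37 ± 0.31. The number of higher Wnt and Notch genes was 3 without clone L or without clone S, and 4 without clone B or without O and S together.

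Some members of the EGF and FGF receptor families passed. Erbb3, the kinase-poor receptor that pairs with Erbb2, had 92.2, 139 and 289.7 counts against 1.76, 12.7 and 20.5 and differed by 1.85 ± 0.20 (limma adjusted p = 3.91e-05). Erbb2 itself differed by 0.66 ± 0.17 and the ligand Hbegf by 0.78 ± 0.18, so that 3 of 10 genes of the EGF receptor family were higher and 0 lower. The call of Hbegf ended with array weights (limma adjusted p = 0.0618). Among 10 FGF genes 1 was higher and 4 lower. For both families the shares over all genes were 14.5% higher and 15.9% lower. Fgfbp1, which releases FGF from the matrix, had 702, 1219.7 and 3842 counts against 7.02, 27.7 and 85.4, a difference of 4.29 ± 0.38. Fgfr1 had 0 to 18.1 counts in the most epithelial clones and 31.9 to 617 in the least, and differed by -2.17 ± 0.40 (limma adjusted p = 0.00133). Fgfr2 differed by -0.78 ± 0.20, a call that ended with all 23 clones in 3 groups (limma adjusted p = 0.0593), and the feedback phosphatase Dusp6 by -1.42 ± 0.24 without overlap.

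Among matrix proteases, the metalloproteinases Adam12 and Adamts1 were higher, with medians of 2076 and 6913 counts against 10.8 and 253 and differences of 4.62 ± 0.37 and 3.98 ± 0.48. Adamts9 was lower, with 2.55, 23.2 and 48.6 counts against 569, 845 and 1308, and differed by -3.66 ± 0.23 (limma adjusted p = 2.78e-07). Mmp3, or stromelysin, differed by -3.39 ± 0.54. None of the 4 overlapped between the groups. Of 24 matrix proteases and their inhibitors, 6 were higher and 5 lower, against 14.5% and 15.9% over all genes, and the number of higher genes was 3 without clone L, N or W.

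Among 18 genes of the plasminogen system and secreted protease inhibitors, 7 were higher and 4 lower, against 14.5% and 15.9% over all genes. Serpinb5, or maspin, on chromosome 1 from 106861175 to 106883348, had 416, 524 and 605 counts in the most epithelial clones and 0.589, 2.33 and 3.57 in the least. It differed by 3.77 ± 0.11 (limma adjusted p = 2.43e-11). Plau, which encodes urokinase, differed by 1.91 ± 0.39, and Serpinb2, a urokinase inhibitor, by 1.56 ± 0.41. With 8 clones in each group Serpinb2 differed by 1.00 and did not pass (limma adjusted p = 0.147). Other inhibitors were lower. Slpi, an elastase inhibitor on chromosome 2 from 164354070 to 164356507, had 26.7, 68.4 and 199 counts against 2001, 5471 and 7708, and Serpine2, an inhibitor of thrombin and plasminogen activators, 19, 316 and 1546 against 1614, 4712 and 7697. Neither overlapped, and they differed by -5.13 ± 0.39 and -3.59 ± 0.60 (limma adjusted p = 1.71e-06 and 0.000698). Clone E, labelled Intravasating, was thus 1 of 6 least epithelial clones with such levels. In the 11 other clones Slpi ran from 151 to 10949 counts and Serpine2 from 54.9 to 9030. High levels of both were therefore not confined to the least epithelial group. The anticoagulant protein S gene Pros1 was lower as well, at -1.52 ± 0.36.

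Cholesterol synthesis was the list with the largest share of members past the threshold. Of 24 tested genes, 23 were higher in the most epithelial clones and 0 lower, with a median of 1.44 against -0.01 over all genes. The groups did not overlap for 20 of them, and 23 of the 24 had a positive slope on the score among the 11 other clones. Under every alternative tried, 22 or 23 were higher. Cyp51, which removes a methyl group from lanosterol, had 7778, 10904 and 13702 counts against 415, 2327 and 3180.3 and differed by 2.50 ± 0.38 (limma adjusted p = 0.000354). Sc4mol and Idi1 differed by 2.35 ± 0.29 and 2.32 ± 0.31. The summed counts of the list ran from 67064 to 105832 in the most epithelial clones and from 10313 to 41103 in the least.

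Hmgcs1, the synthase that feeds the pathway, was chosen after its values were seen because its upstream sequence holds a sterol regulatory element, the site of SREBP factors. It had 4563, 7297 and 9639 counts against 388, 2067 and 3121 and differed by 2.05 ± 0.38 without overlap (limma adjusted p = 0.00142). The letters TCACNCCAC, or GTGGNGTGA on the other strand, occurred in the 250 upstream bases of 1.22% of all genes, and in 1 of the 15 higher cholesterol genes with a sequence. Capitals mark the element, which begins 137 bases before the start site.
Hmgcs1, chr13:119690101-119690350, plus strand: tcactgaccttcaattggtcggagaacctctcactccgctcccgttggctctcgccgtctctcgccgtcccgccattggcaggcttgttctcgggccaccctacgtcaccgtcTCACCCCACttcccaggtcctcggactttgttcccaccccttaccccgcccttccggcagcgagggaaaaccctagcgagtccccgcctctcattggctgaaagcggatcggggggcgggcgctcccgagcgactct

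Interferon-stimulated genes and antigen presentation lay on the other side. Of 28 tested interferon genes, 16 were lower in the most epithelial clones and 0 higher, with a median of -0.66, and all 28 had a negative slope on the score among the 11 other clones. Ifit1, an RNA-binding antiviral protein, had 14.1, 33.4 and 144 counts against 156, 341 and 949 and differed by -2.05 ± 0.38 without overlap (limma adjusted p = 0.00132). Gbp7, a guanylate-binding protein, differed by -1.47 ± 0.30, a call that ended with all 23 clones in 3 groups (limma adjusted p = 0.073). The 16 genes were 3 when all 23 clones shared 1 estimate of the spread, 5 for the slope on the score over the 23 clones, and 10 with 8 clones in each group. Clone G, of neither group, had 2995 counts of Ifit1, above every clone of both groups, and enters all 3 of these fits. Clone G is also 1 of the 11 clones behind the 28 negative slopes. Over these 11 clones the median of Ifit1 was 95.5 counts, and that of Gbp7 was 128, against 3050 in clone G. The signs without clone G were not counted, and the genes of this list are not independent replicates.

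In the MHC class I list of 17 genes, 10 were lower and 1 higher, with a median of -0.75. Psmb8 and Psmb9, subunits of the immunoproteasome, had medians of 186 and 60.9 counts against 1473 and 771, and differed by -2.40 ± 0.51 and -2.45 ± 0.52. Clone A, the most epithelial of all, was the highest of its group for both genes. Clones A and M overlapped the least epithelial clones for Psmb8 (600 and 514 counts, against 469 in O) and Psmb9 (348 and 301, against 259 in O). Nlrc5, the activator of class I genes, differed by -1.86 ± 0.38 and the peptide transporter gene Tap1 by -1.07 ± 0.29. Clone M overlapped the least epithelial clones for Nlrc5, and clones A and M for Tap1. The light chain B2m, chosen after its values were seen, had 9703, 12113 and 14757 counts against 17590.0, 20770.1 and 29369 and differed by -0.84 ± 0.15 without overlap. The higher gene was the chaperone Calr at 0.41 ± 0.14 (limma adjusted p = 0.0349). Its call ended without any 1 of the clones H, L, M, P, B, S or W, with adjusted p between 0.0517 and 0.0865.

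An interferon-stimulated response element, GAAA repeated after 2 bases of any kind (TTTC on the other strand), was found upstream of 3.46% of all genes with a sequence and 3.1% of the tested ones. It was found upstream of 12 of the 23 interferon genes with a sequence and of 7 of the 20 genes with a sequence that were lower in this list or that of MHC class I. The sequences of Ifit1 and B2m show it in capitals, 104 and 85 bases before the start site of Ifit1 and 139 bases before that of B2m.
Ifit1, chr19:34640639-34640888, plus strand: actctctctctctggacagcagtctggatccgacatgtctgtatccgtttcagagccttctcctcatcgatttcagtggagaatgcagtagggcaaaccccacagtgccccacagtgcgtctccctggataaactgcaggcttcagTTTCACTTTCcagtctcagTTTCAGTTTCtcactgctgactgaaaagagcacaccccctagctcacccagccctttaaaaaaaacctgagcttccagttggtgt
B2m, chr2:122147437-122147686, plus strand: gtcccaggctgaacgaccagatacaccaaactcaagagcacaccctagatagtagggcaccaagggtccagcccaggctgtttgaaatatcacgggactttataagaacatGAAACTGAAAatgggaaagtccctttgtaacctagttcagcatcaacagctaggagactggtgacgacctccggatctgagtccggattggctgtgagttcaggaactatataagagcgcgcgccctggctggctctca

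**Figure D4:**
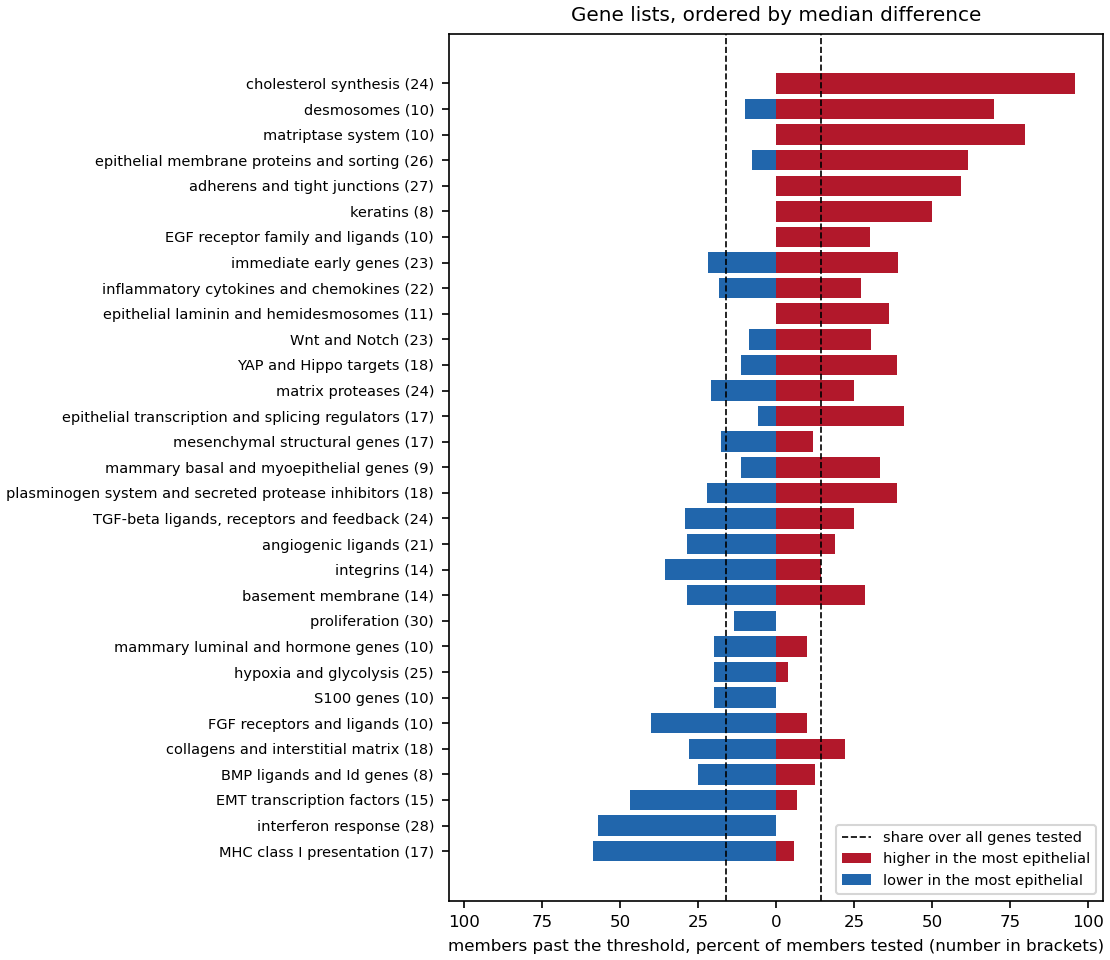
Bars show for each gene list with at least 8 tested members the percent of members higher (red, to the right) or lower (blue, to the left) in the most epithelial clones, with the number tested in brackets and lists ordered by their median difference. Dashed lines mark the share over all genes, 14.5% higher and 15.9% lower; cholesterol synthesis stands at the top and MHC class I presentation at the bottom.

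Of 22 inflammatory mediators 6 were higher and 4 lower, the latter near the share over all genes. Cxcl16, a chemokine anchored in the membrane, had 866, 1302 and 2368 counts against 90.7, 113 and 169 and differed by 3.02 ± 0.24 without overlap (limma adjusted p = 1.98e-06). Ptgs2, which encodes cyclooxygenase-2, had a median of 13035 counts against 1615 and differed by 2.75 ± 0.29. Il1a and the neutrophil chemokine Cxcl1 differed by 2.89 ± 0.75 and 2.00 ± 0.44. Both were highest in clone G, of neither group, and neither passed with 8 clones in each group (limma adjusted p = 0.363 and 0.474). The slope of Il1a among the 11 other clones was -1.29 ± 1.18. The monocyte chemokine Ccl2 was lower, with 2.04 to 71.7 counts against 152 to 596, and differed by -2.04 ± 0.29, a call that ended with all 23 clones in 3 groups (limma adjusted p = 0.068).

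**Figure D5:**
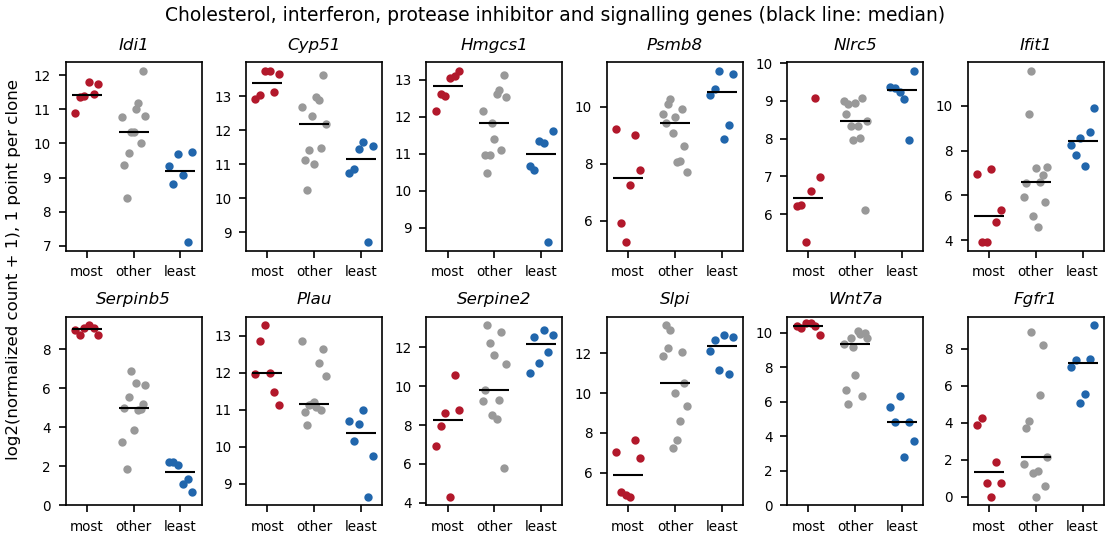
Each point is 1 clone, as log2(normalized count + 1), in the 6 most epithelial, 11 other and 6 least epithelial clones, with the median as a black line and an axis of its own for each gene. For Idi1, Cyp51 and Hmgcs1 the lowest point of the least epithelial clones is clone S, at 136, 415 and 388 counts, and for Serpinb5 and Slpi the outer groups lie far apart.

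Of 21 ligands of blood vessels 4 were higher and 6 lower, against 14.5% and 15.9% over all genes. Angpt1, an angiopoietin, had 1.75, 7.81 and 89.4 counts against 332, 599 and 1546 and differed by -3.57 ± 0.33. Pdgfb differed by 2.43 ± 0.41 and the vessel inhibitor Thbs1 by 1.55 ± 0.36. Of 25 hypoxia and glycolysis genes 1 was higher and 5 lower, the latter near the share over all genes. Egln3, an oxygen-sensing hydroxylase that hypoxia raises, had a median of 456 counts against 1702 and differed by -2.15 ± 0.29 without overlap, Bnip3 by -1.38 ± 0.34 and Pdk1 by -1.13 ± 0.27. The number of lower hypoxia genes was 9 without clone A.

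Of 23 immediate early genes 9 were higher and 5 lower, against 14.5% and 15.9% over all genes. Junb differed by 1.62 ± 0.28, Egr2 by -1.30 ± 0.18 and Jun by -0.83 ± 0.19. Among 30 proliferation genes 0 were higher and 4 lower, below the 15.9% of all genes, and 1 was lower without clones O and S. The replication clamp Pcna, with medians of 3759 and 5037 counts, differed by -0.42 ± 0.11 and the cell cycle factor E2f1 by -0.62 ± 0.17, and both calls ended without clones O and S (limma adjusted p = 0.0645 and 0.0692). Of 10 luminal genes 1 was higher and 2 lower, and Stat5a, the transducer of prolactin, was lower at -1.42 ± 0.21 without overlap. Of 9 basal genes 3 were higher and 1 lower, against 14.5% and 15.9% over all genes. The lower one was the myosin light chain kinase gene Mylk, at -1.96 ± 0.43. Of 10 S100 genes 2 were lower. For both luminal and S100 genes, the share of lower members was near that over all genes.

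Many defining markers of other cell types were near 0 in these cultures, but several listed genes were not. The sums below run over all listed genes present in the data, whether or not they passed the filter. Of 11 macrophage genes listed 4 passed the filter, with summed counts of 120.0 to 262 in the most and 126 to 263 in the least epithelial clones, and C1qa and C1qc had no read in any of the 12. Csf1r, the receptor of a macrophage growth factor, had 9.53 to 129 counts against 2.68 to 6.12 and was higher in the most epithelial clones, at 1.04 ± 0.23 (limma adjusted p = 0.00471). Cd68, which is not confined to macrophages, had 81.8 to 168 counts in the most epithelial clones and at least 89.3 in each of the least epithelial ones. Mrc1 had 0 to 18.9 counts against 1.68 to 26.7, and Cd163 had 0 to 17.6 against 3.41 to 43.9. Both reached higher in the least epithelial clones, but neither passed the threshold. Of 10 fibroblast genes 2 passed the filter. The sums over the fibroblast list, 132 to 309 against 749 to 1831 counts, were mostly Pdgfra, while Dcn had at most 16.9 counts. Of 9 endothelial genes 2 passed, with sums of 94.7 to 143 and 69.9 to 123 counts, and Emcn had no read. Of 9 leukocyte genes 3 passed the filter and 0 the threshold, with sums of 1054 to 7686 and 436 to 5192 counts. The best expressed were Lcp1, an actin-bundling protein with 522 to 6770.0 and 77.3 to 4714 counts, and Arhgdib, with 49.9 to 905 and 81.2 to 460.4. The part of these markers in the results was not tested.

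Outside the lists, large higher differences belonged to Moxd1 (4.38 ± 0.39), a relative of dopamine hydroxylase, and the cytokine Il24 (4.09 ± 0.41). Moxd1 had 547, 1683 and 3101 counts in the most epithelial clones and 2.85, 20.1 and 100.3 in the least. The largest lower differences were those of the glycoprotein gene Gpnmb (-4.35 ± 0.65), the adhesion gene Amigo2 (-4.09 ± 0.41), the water channel Aqp1 (-3.97 ± 0.36) and the lysyl oxidase relative Loxl3 (-3.87 ± 0.49). The deiodinase Dio2 differed by -3.57 ± 0.42, the hedgehog antagonist Hhip by -3.44 ± 0.60 and the myelin protein Pmp22 by -3.40 ± 0.48. None of these 9 genes overlapped between the groups. Clone M held the highest count of its group for Gpnmb (1213), Loxl3 (852), Dio2 (276), Hhip (1857) and Pmp22 (403).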

How the data were processed

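RNA-seq of 46 libraries from 23 clones (2 per clone) and 8 from specimens was used. The submitters' processing notes name Bowtie2, HTSeq, DESeq and the build mm10. Their versions, settings and strand handling were not given in the sources used here, so reads of overlapping or near-identical genes may be mixed. The values of the 23481 genes are log2 as the authors deposited them. Read from the values, these follow a variance-stabilising curve with genes without reads at 5.03, and inverting it gave normalized counts and whole reads (100% of values within 0.01). Differences are on the deposited log2 scale, which understates those of low genes. There were 0 columns without a sample.

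Clone means were compared with limma 3.58.1 in R 4.3.3 (two-sided, variance trend, Benjamini-Hochberg, threshold 0.05) over genes with at least 10 normalized counts in at least 2 of the 12 clones. P-values measure the spread between clones. In a simulation, normal noise was drawn for each gene on its own and 200 of 12948 genes were shifted. There 92% of shifts of 1 log2 unit and 98% of shifts of 2 units were called, with 4 unchanged genes. Genes that vary together across clones were not simulated, so this gives no rate of false calls for the real data. Named genes are the score genes, the 12 largest differences in each direction with at least 50 counts, up to 4 members per list and direction, and names such as Zeb1 and Slpi whatever their values. The members and lists were chosen with earlier results of these data known. Promoter and microRNA sequences are RefSeq's (GRCm38.p6). Of 12940 tested genes, 9511 had an upstream sequence. Alternatives changed the filter, scale, centring, score, group size, weights, library letter as a block and the clones used. Results for some genes are not reported here.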

Additional observations from a re-analysis of the deposited data

Results flagged for a closer look

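The score, the score genes and the other named genes made 270 combinations with a group. In each, the clone farthest from the other 5 was compared with the range of its group. By Dixon's 95% rule, which chance meets in about 1 in 20 groups, 17 of the 270 stood apart. That is near the rate of chance, so the values below are a description. The score and its genes chose the groups, which in part fixes their ranges. Values here are deposited log2 values, followed by normalized counts.

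Clone S was low for 3 genes of cholesterol synthesis among the least epithelial clones. Cyp51 stood at 8.897 (415 counts, against a median of 2800.0 in the other 5 clones), Sc4mol at 8.895 and Hmgcs1 at 8.817. Clone H was low among the most epithelial clones for Itgb6 at 7.301, Fn1 at 13.430 and Ctgf at 9.884 (882 counts, against 6897). Clone M was high in the same group for Mgp at 7.987, Angpt1 at 7.184 and Gpnmb at 10.319 (1213 counts, against 29.5), and clone J for Acta2 at 6.712.

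In the least epithelial group, clone E was high for Rab25 at 5.897, clone W for Foxq1 at 7.507 and Postn at 5.647, and clone B for Il1a at 6.325 and Ccl2 at 9.342. Clone O was low for Tmprss11e at 7.195 and clone N for Bnip3 at 8.858.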

How the results depend on the processing

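The 3926 genes past the threshold became 6035 with array weights, which weigh the clones by their fit (2904 higher, 3131 lower), and lay between 2984 (without clone L) and 4139 (without clone A) when 1 clone was left out. With the library letter as a block they numbered 4100, and without clones O and S, an alternative chosen after seeing the data, 2922. With clones E and B as 1 value they numbered 3440. Centring each clone on its median gave 2039 higher and 1826 lower genes. Genes whose groups did not overlap, 1583, became 401 with 8 clones in each group and 975 with clones chosen in the libraries B and tested in A, and lay between 1611 and 2203 when 1 clone was left out. In the 11 other clones the slope passed for 0 genes with no filter and for 0 to 3 genes when 1 clone was left out. Of 121 named genes past the threshold, 103 passed under every alternative run. Krt8 changed sign: 0.023 centred, 0.076 for the slope over 23 clones, 0.146 with 8 clones, 0.070 from libraries A to B, 0.006 without clone E, 0.025 with clones E and B as 1 value, and -0.165 to 0.088 without 1 clone. Krt18 was -0.039 without clones O and S. The causes were not tested. Low counts limit what can be read from genes such as Zeb1 and Snai2, and 6 clones per group limit all tests.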
